A study of Homo sapiens with 18 samples.

Results

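Human umbilical vein endothelial cells (HUVEC) that had been cultured with CD63+ extracellular vesicles (EVs) of T cells were compared with HUVEC that had been cultured with MHC1+ EVs of the same T cells, over both T cell lines used as a source. The comparison took the 6 arrays whose bracketed names give a CD63 capture (3 with Jurkat EVs and 3 with JinB8 EVs) and the 6 whose bracketed names give an MHC capture (3 and 3), 12 of the 18 arrays of the study. The cell line was kept as a block, so that each CD63+ array was set against MHC1+ arrays of its own line, and genes were sought that differed the same way in both. All 12 arrays come from HUVEC (ATCC) kept with bead-captured EVs for 3 days. Jurkat is a human T cell leukaemia line, and JinB8 is a Jurkat mutant that lacks the surface receptor CD47. The concentrated medium of the T cell flasks was pooled before the EVs were purified, and the labels name no separate cultures behind the 3 arrays of each group. All p-values therefore rest on the spread between these arrays, which may be technical. The titles of 5 of the 6 JinB8 arrays give another number after the stem JINB outside the brackets, and the bracketed names, which all say JINB8, were followed. The 6 arrays of untreated and bead-only HUVEC entered no test here except in 1 alternative fit.

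EVs are membrane particles that cells shed, and they carry protein, lipid and RNA to other cells. CD63 is a tetraspanin of late endosomes, and it marks vesicles that form inside endosomes and leave the cell when these fuse with the plasma membrane. MHC class I (MHC1) displays peptides on the surface of nearly all nucleated cells and is carried on EVs of endosomal and of surface origin. Endothelial cells line blood vessels, and they answer inflammatory, matrix and growth signals with changes in adhesion, secreted factors and division.

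Levels are RMA values on the log2 scale, and a difference is CD63+ minus MHC1+, so a difference of 1 is a doubling. Of the 12 arrays, no pair had identical values at more than 0.024% of probe sets, and Pearson's r over probe sets ran from 0.932 to 0.995. The 12 endothelial marker genes averaged 9.29 in the CD63+ and 9.23 in the MHC1+ arrays of Jurkat, and 9.20 in the CD63+ and 9.19 in the MHC1+ arrays of JinB8. The 15 T cell markers averaged 4.48 and 4.53 in Jurkat and 4.52 and 4.43 in JinB8, in the same order, and the monocyte, fibroblast and epithelial markers lay between 4.34 and 5.36. The spread of values within an array differed between arrays. Its SD over all probe sets was 2.16, 2.18 and 2.20 in the Jurkat CD63+ arrays, against 2.01, 2.14 and 2.21 in the Jurkat MHC1+ arrays. It was 2.12, 2.19 and 2.05 in the JinB8 CD63+ arrays, against 2.21, 2.24 and 2.25 in the JinB8 MHC1+ arrays. In JinB8 the groups did not overlap, with all CD63+ arrays lower. In Jurkat they overlapped, and MHC1+ replicate 1 lay lowest of the 12. That array also had the lowest median correlation with the other 11 arrays among the 12 (0.947, against 0.975 to 0.992 elsewhere). A batch, if there was one, cannot be told apart from the groups, because the arrays of each group have consecutive serial numbers.

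**Figure D1:**
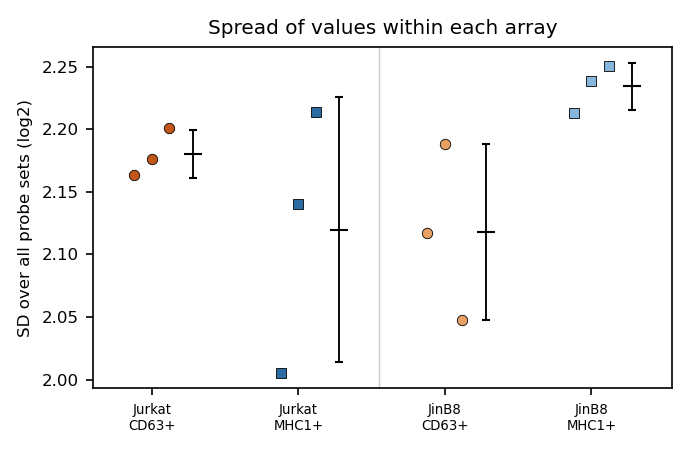
SD of the log2 values over all probe sets of each array (vertical axis), by T cell line and capture. Points are arrays and bars are the group mean ± SD (n = 3). The JinB8 MHC1+ arrays lie from 2.21 to 2.25, above the 3 JinB8 CD63+ arrays, and Jurkat MHC1+ replicate 1 lies at 2.01.

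With the line as a block, 1 of 18417 genes rose with CD63+ EVs (0.00543% of genes tested) and 0 fell (0%; limma, adjusted p under 0.05). At an unadjusted p under 0.05 there were 511 genes. The gene that rose was STC1, which encodes stanniocalcin 1, a secreted glycoprotein hormone first known from the control of calcium in fish. STC1 stood at 8.19, 8.28 and 8.21 with Jurkat CD63+ EVs, against 7.38, 7.36 and 7.07 with Jurkat MHC1+ EVs. It stood at 8.78, 8.84 and 8.72 with JinB8 CD63+ EVs, against 7.68, 7.84 and 7.49 with JinB8 MHC1+ EVs. Every CD63+ array was above every MHC1+ array, also across the lines. In RNA from a whole culture, a change in some of the cells cannot be told apart from a smaller change in all of them, and the same holds for all genes below. The difference was 1.03 ± 0.091 (SE; 6 CD63+ against 6 MHC1+ arrays), a 2.04-fold difference with an adjusted p of 0.000857. It was 0.96 ± 0.13 in Jurkat (limma adjusted p = 0.109) and 1.10 ± 0.13 in JinB8 (limma adjusted p = 0.00474). Over the 12 fits that leave out 1 array, the STC1 difference ranged from 0.98 to 1.06 and its adjusted p from 0.00028 to 0.00711. The call was lost without the line as a block (adjusted p = 0.201) and when the 12 arrays were quantile-normalized again (adjusted p = 0.103), with differences of 1.03 in both.

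STC2, the other stanniocalcin, had a difference of the opposite sign. It stood at 6.98, 6.87 and 7.02 with Jurkat CD63+ EVs, against 7.03, 7.30 and 7.27 with Jurkat MHC1+ EVs. It stood at 6.88, 6.89 and 6.75 with JinB8 CD63+ EVs, against 7.10, 7.31 and 7.24 with JinB8 MHC1+ EVs. The arrays did not overlap within either line, with the closest pair in Jurkat at 7.02 and 7.03. The STC2 difference of -0.31 ± 0.084 did not pass in the blocked fit, and with the array SD as a covariate, a fit described below, STC2 fell by 0.28 (adjusted p = 0.0404).

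Agreement between the lines was counted without a p-value, as genes whose CD63+ arrays all lay on the same side of the MHC1+ arrays in Jurkat and again in JinB8. Within Jurkat alone 1090 genes were higher and 932 lower without overlap, and within JinB8 2674 were higher and 2352 lower. With totals of this size some genes meet the rule in both lines by coincidence, so meeting it is not by itself replication. CD63+ was higher in both lines for 60 genes (0.326%) and lower in both for 68 (0.369%). The opposite arrangement, higher in one line and lower in the other without overlap, was found for 327 genes, more than the 128 that agreed. Only 23.7% of all genes had the same sign of difference in both lines. Over the 18417 genes the difference in Jurkat and that in JinB8 had a Pearson's r of -0.64, which is a description across genes of 4 groups that share one normalization. Without Jurkat MHC1+ replicate 1 it was -0.31. Among the 1840 genes with the highest mean level (8.45 and above) the median difference was 0.19 in Jurkat and -0.21 in JinB8, while among the 1840 genes between 4.35 and 4.96 it was -0.16 in Jurkat and 0.14 in JinB8. The array SD ran the same way, higher with CD63+ than with MHC1+ EVs on average in Jurkat and lower in JinB8.

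The 60 genes that were higher had a median difference of 0.24 and a median level of 6.15, and 25 of them (41.7%, against 40.6% of all genes) had a mean level under 5. The 68 genes that were lower had a median difference of -0.26 and a median level of 8.16, and 3 of them (4.41%) had a mean level under 5. Over all genes the median level was 5.57. In both sets 90.0% and 89.7% were protein-coding, against 91.8% of all genes. Of the 60, 48 had an unadjusted p under 0.05, and of the 68, 63 did, against 511 of 18417 over all genes. Both sets were picked by non-overlap on the same arrays, so small p-values follow in part from that choice and add no support. Apart from STC1 and SMPD2, the 128 genes all had a difference between -0.5 and 0.5.

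A fit that added the array SD as a covariate to the line block gave many more calls. There 362 genes rose (1.97%) and 83 fell (0.451%), and all 445 had the same sign as in the fit without the covariate. Only 103 of them had an unadjusted p under 0.05 in the fit without it. Of the 445, 45 also agreed in both lines by the arrays themselves, 15 that were higher and 30 that were lower. With the covariate 60.1% of genes had the same sign in both lines, and r between the lines was 0.31. The array SD was higher with CD63+ EVs on average in Jurkat and lower without overlap in JinB8. Its part and that of capture therefore cannot be fully told apart within a line. Taking it out can by itself remove opposite differences, so the change in r adds no support for agreement. The array SD is computed from the same values that were tested, the covariate was listed as an alternative with earlier results of these data known, and what sets the SD was not tested. Below, "rose" and "fell" are used of genes other than STC1 only for calls of this second fit, named as the covariate fit, and many of these calls do not agree between the lines in the plain values. Of the 362 that rose, 95 had the same sign of plain difference in Jurkat and in JinB8, and of the 83 that fell, 62 did. Counts of list members below are to be set beside the shares over all genes. These were 1.97% risen and 0.451% fallen in the covariate fit, and 0.326% higher and 0.369% lower without overlap.

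**Figure D2:**
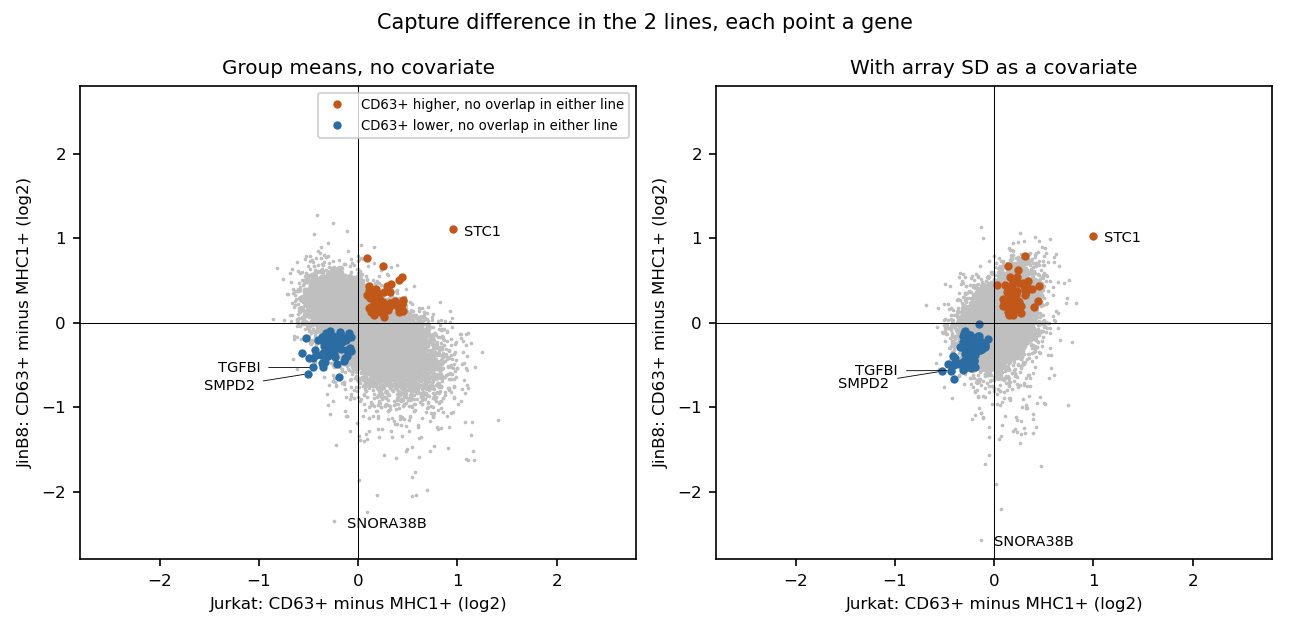
Difference CD63+ minus MHC1+ (log2) in Jurkat (horizontal axis) against that in JinB8 (vertical axis), each point a gene, from group means (left) and with the array SD as a covariate (right). Orange and blue points are the 60 and 68 genes whose arrays did not overlap in either line. The cloud runs downwards on the left (r = -0.64) and upwards on the right (r = 0.31), and STC1 stands apart at 0.96 and 1.10 on the left.

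Among the genes of TGF-beta signalling, the pathway by which secreted ligands act through receptor kinases and SMAD proteins on matrix genes, 4 of 25 were lower in both lines without overlap and 0 higher. Over all genes these shares were 0.369% and 0.326%. In the blocked fit 12 of the 25 had a positive difference and 13 a negative one. TGFBI, a matrix protein named for its induction by TGF-beta, had the second smallest p of all genes. It stood at 7.92, 8.04 and 7.99 with Jurkat CD63+ EVs, against 8.53, 8.31 and 8.45 with Jurkat MHC1+ EVs. It stood at 7.64, 7.76 and 7.73 with JinB8 CD63+ EVs, against 8.29, 8.24 and 8.19 with JinB8 MHC1+ EVs. All 6 CD63+ arrays were below all 6 MHC1+ arrays. The TGFBI difference was -0.49 ± 0.075 with an adjusted p of 0.186, so it missed the threshold in the blocked fit, and it was -0.49 ± 0.067 in the covariate fit (adjusted p = 0.0118).

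CCN2, the matricellular connective tissue growth factor, stood at 9.88, 9.95 and 9.80 with Jurkat CD63+ EVs, against 10.46, 10.12 and 10.16 with Jurkat MHC1+ EVs. It stood at 9.72, 9.56 and 9.71 with JinB8 CD63+ EVs, against 10.03, 9.97 and 10.14 with JinB8 MHC1+ EVs. The CCN2 difference was -0.38 ± 0.086, nearly the same in both lines (-0.37 in Jurkat and -0.38 in JinB8), and CCN2 fell by 0.40 in the covariate fit (adjusted p = 0.0173). BMP4, a secreted ligand of the same superfamily, differed by -0.50 in Jurkat and -0.42 in JinB8 without overlap and fell by 0.48 ± 0.089 in the covariate fit (adjusted p = 0.0202). BMP6, another such ligand, was also lower without overlap, with a difference of -0.11, and did not pass in either fit. The ligand TGFB2 had a difference of -0.52 ± 0.13 and overlapped in Jurkat, where MHC1+ replicate 1 lay at 9.47, below the 3 CD63+ arrays at 9.63, 9.53 and 9.64. TGFB2 and INHBA, the subunit of activin A, fell in the covariate fit (-0.45 and -0.39). INHBA differed in the plain values by -0.24 in Jurkat and -0.70 in JinB8. In the covariate fit 5 of 25 thus fell and 0 rose, against 0.451% and 1.97% of all genes. The median over the whole list was -0.039, against 0.0053 over all genes.

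The 250 bases upstream of the start of TGFBI and of CCN2 are shown because these genes were lower together in both lines. They come from RefSeq on GRCh38.p14, for TGFBI chr5:136028738-136028987 on the plus strand and for CCN2 chr6:131951373-131951622 on the minus strand, read in the direction of transcription. Capitals mark a CCAAT box on the reverse strand (ATTGG).
TGFBI: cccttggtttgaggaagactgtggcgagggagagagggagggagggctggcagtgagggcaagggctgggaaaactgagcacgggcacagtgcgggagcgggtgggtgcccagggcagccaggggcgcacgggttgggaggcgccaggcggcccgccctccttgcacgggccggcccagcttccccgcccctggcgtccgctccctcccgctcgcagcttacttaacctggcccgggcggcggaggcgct
CCN2: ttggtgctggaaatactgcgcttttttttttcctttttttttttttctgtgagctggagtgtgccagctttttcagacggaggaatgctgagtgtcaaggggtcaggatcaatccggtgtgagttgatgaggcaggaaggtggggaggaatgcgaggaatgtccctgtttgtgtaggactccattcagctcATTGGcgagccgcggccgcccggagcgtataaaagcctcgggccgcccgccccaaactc
The SMAD element was searched only as the exact string CAGACA on both strands, and neither window holds it. The CCN2 window does hold cagac, followed there by g. Shorter or other forms of the element were not searched, so these windows may hold such forms. Among the genes lower in both lines, 48 of 68 had an upstream sequence in the table, and the SMAD element was found in 6.25% of these, against 6.82% of the 44 found for genes higher in both lines and 11.4% of 14221 over all genes. The CCAAT box, searched as CCAAT on both strands, was found in 33.3%, 31.8% and 34.4% of the same sets. A match describes these letters and not a bound factor.

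**Figure D3:**
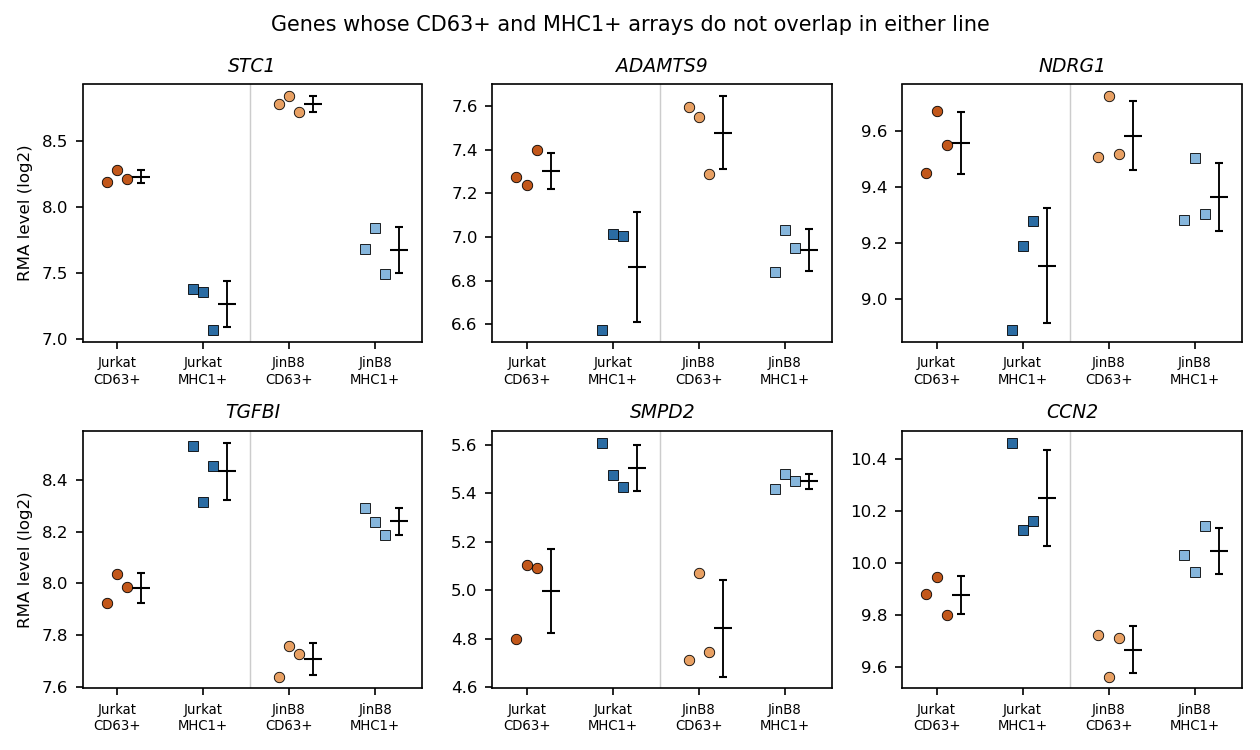
RMA level (log2, vertical axis) of 6 genes in each array, by T cell line and capture, with bars for the group mean ± SD (n = 3). STC1, ADAMTS9 and NDRG1 (top) have every CD63+ array above the MHC1+ arrays of the same line, and TGFBI, SMPD2 and CCN2 (bottom) have every one below. STC1 CD63+ arrays lie at 8.19 to 8.84.

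SMPD2, a neutral sphingomyelinase that cleaves the membrane lipid sphingomyelin into ceramide, had the third smallest p. It stood at 4.80, 5.10 and 5.09 with Jurkat CD63+ EVs, against 5.61, 5.47 and 5.43 with Jurkat MHC1+ EVs. It stood at 4.71, 5.07 and 4.74 with JinB8 CD63+ EVs, against 5.42, 5.48 and 5.45 with JinB8 MHC1+ EVs. No CD63+ array reached any MHC1+ array. The SMPD2 difference was -0.56 ± 0.093 (adjusted p = 0.307), and it fell by 0.54 in the covariate fit (adjusted p = 0.0149).

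Of the matrix proteases, enzymes that cut matrix proteins, ADAMTS9 was higher in both lines. This secreted metalloproteinase, which cleaves proteoglycans, stood at 7.28, 7.24 and 7.40 with Jurkat CD63+ EVs, against 6.57, 7.01 and 7.005 with Jurkat MHC1+ EVs. It stood at 7.60, 7.55 and 7.29 with JinB8 CD63+ EVs, against 6.84, 7.03 and 6.95 with JinB8 MHC1+ EVs. Again the 6 CD63+ arrays were above all 6 MHC1+ arrays. ADAMTS9 had a difference of 0.49 ± 0.10 and rose by 0.52 in the covariate fit (adjusted p = 0.0149). ADAMTS4, a related proteoglycan-cleaving enzyme, was at 6.64, 6.59 and 6.60 with Jurkat CD63+ EVs, against 5.98, 6.03 and 6.21 with Jurkat MHC1+ EVs. In JinB8 the ADAMTS4 arrays overlapped, with CD63+ replicate 3 at 6.11, and the plain difference was 0.54 in Jurkat and 0.22 in JinB8. MMP10, stromelysin 2, differed by -0.28 in Jurkat and by -1.08 in JinB8. In the covariate fit 3 of 17 proteases rose (ADAMTS4, ADAMTS9 and ADAM17) and 1 fell (MMP10, by 0.55). Over all genes 1.97% rose and 0.451% fell there. The plain difference of ADAM17, a protease that sheds membrane proteins, was 0.58 in Jurkat and -0.22 in JinB8, so that the lines ran opposite ways.

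Collagens and the enzymes that modify them were mostly on the negative side, with 29 of 34 measured genes below 0, against 8846 of 18394 over all genes. Their median was -0.076. COL4A1, a chain of basement membrane collagen, PLOD1, a lysyl hydroxylase of collagen, and LOXL2, a lysyl oxidase that cross-links it, were lower in both lines without overlap. LOXL2 differed by -0.36 in each line and fell by 0.37 in the covariate fit (adjusted p = 0.0268). COL5A1 and COL5A2, chains of a fibril collagen, also fell there, and 0 of 34 rose. COL5A1 did not keep its sign in the group means, with -0.56 in Jurkat and 0.024 in JinB8, and COL5A2 had -0.14 and -0.49. MYL9, the regulatory light chain of smooth muscle and non-muscle myosin, stood at 9.50, 9.47 and 9.31 with Jurkat CD63+ EVs, against 10.03, 9.76 and 9.85 with Jurkat MHC1+ EVs. It stood at 9.03, 9.33 and 9.30 with JinB8 CD63+ EVs, against 9.68, 9.61 and 9.62 with JinB8 MHC1+ EVs. All CD63+ arrays lay below all MHC1+ arrays, and MYL9 had a difference of -0.43 ± 0.087 and fell by 0.45 in the covariate fit (adjusted p = 0.016). TAGLN, an actin-binding protein of contractile cells, fell there by 0.47, and its plain difference was -0.35 in Jurkat, where the arrays overlapped, and -0.64 in JinB8.

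Genes of the type I interferon response, an antiviral programme driven by interferon receptors and STAT proteins, had a median of -0.25, with 26 of 33 below 0. In Jurkat their median was -0.036 and in JinB8 -0.49. IFITM3, which blocks the fusion of viruses with endosomes, stood at 11.01, 11.01 and 10.74 with Jurkat CD63+ EVs, against 11.26, 11.46 and 11.11 with Jurkat MHC1+ EVs. It stood at 10.78, 11.05 and 10.58 with JinB8 CD63+ EVs, against 11.29, 11.39 and 11.32 with JinB8 MHC1+ EVs. The groups did not overlap in either line, and IFITM3 fell by 0.42 in the covariate fit (adjusted p = 0.0312). OAS3, an enzyme that makes the signal for RNA decay by RNase L, and MX1, an antiviral GTPase, were also lower without overlap in both lines, with differences of -0.40 ± 0.10 for OAS3 and -0.29 ± 0.087 for MX1. In the covariate fit 4 of 33 fell (OAS3, IFITM1, IFITM3 and BST2) and 0 rose, against 0.451% and 1.97% of all genes. MX1 had an adjusted p of 0.0637 there. In the plain values IFITM1 differed by -0.069 in Jurkat and -0.87 in JinB8, and BST2 by -0.075 and -0.85. The 14 genes of antigen presentation had a median of -0.10, with 0.10 in Jurkat and -0.30 in JinB8, and 0 passed in either fit. B2M, the light chain of MHC class I, differed by -0.14 ± 0.21 (95% interval -0.60 to 0.31).

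Of the 32 NF-kB targets and activation genes of endothelium, 0 agreed in both lines without overlap. Over both lines 25 of them were below 0 (median -0.19), against 8846 of 18394 over all genes. Their median was -0.012 in Jurkat and -0.35 in JinB8. CXCL1, a chemokine for neutrophils, was at 9.62, 9.92 and 9.78 with Jurkat CD63+ EVs, against 10.35, 9.92 and 10.04 with Jurkat MHC1+ EVs. It was at 9.63, 9.75 and 9.56 with JinB8 CD63+ EVs, against 10.15, 10.10 and 10.32 with JinB8 MHC1+ EVs. The JinB8 groups of CXCL1 were apart, whereas in Jurkat the highest CD63+ array and the lowest MHC1+ array both lay at 9.92. CCL2, a chemokine for monocytes, differed by -0.13 in Jurkat and -0.88 in JinB8, and CXCL8 by 0.00035 in Jurkat and -0.88 in JinB8. All 3 chemokines fell in the covariate fit (by 0.43 for CXCL1, 0.42 for CCL2 and 0.33 for CXCL8).

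The metallothioneins MT1E, MT1F and MT1G, small cysteine-rich proteins that bind zinc and copper, were lower in both lines without overlap. MT1F stood at 7.06, 7.20 and 6.91 with Jurkat CD63+ EVs, against 7.57, 7.23 and 7.36 with Jurkat MHC1+ EVs. It stood at 6.85, 6.89 and 6.91 with JinB8 CD63+ EVs, against 7.34, 7.17 and 7.13 with JinB8 MHC1+ EVs. The gap was narrowest in Jurkat, between 7.20 and 7.23. Each of MT1E, MT1F and MT1G differed by -0.31 to -0.33 and fell in the covariate fit. Near-identical copies make up this family, so how far their probe sets read each other cannot be told from the table. The other 20 members of the antioxidant and metallothionein list did not pass in either fit.

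**Figure D4:**
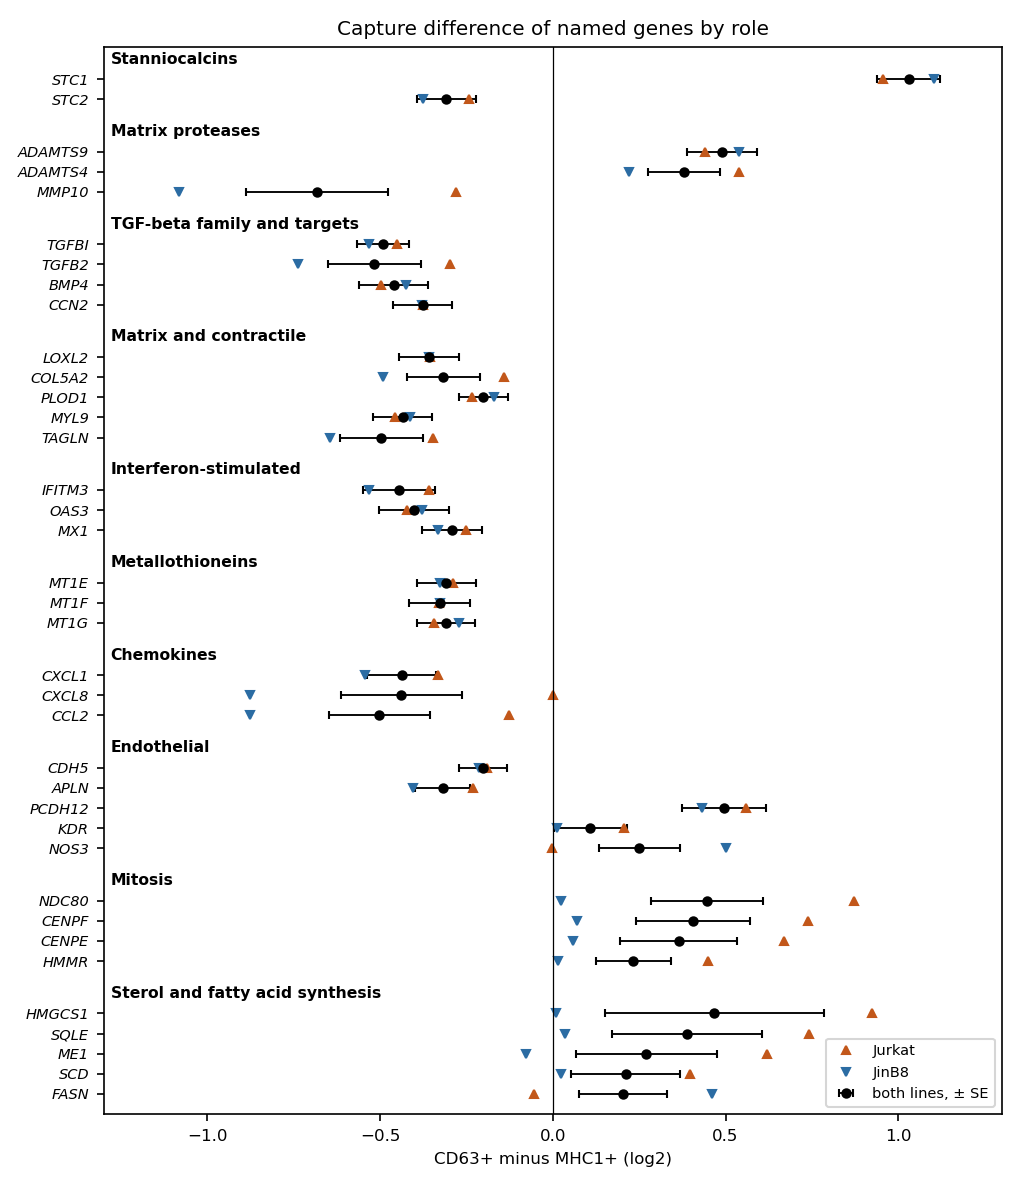
Difference CD63+ minus MHC1+ (log2, horizontal axis) of named genes by role. Black points are the blocked fit over both lines ± SE, triangles pointing up are Jurkat and triangles pointing down are JinB8. STC1 stands at 1.03, the TGF-beta, contractile, interferon-stimulated and metallothionein genes shown lie left of 0 in both lines, and the mitosis genes are to the right mainly in Jurkat.

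Of 33 genes of endothelial junctions and identity, 0 passed in the blocked fit, and their median difference was 0.051. In the covariate fit 1 of the 33 rose and 0 fell, against 1.97% and 0.451% of all genes. Not all genes named in this paragraph belong to that list. CDH5, the cadherin of endothelial junctions, was lower in both lines without overlap, at 11.76, 11.72 and 11.78 with Jurkat CD63+ EVs, against 11.98, 11.89 and 11.95 with Jurkat MHC1+ EVs. It was at 11.51, 11.62 and 11.63 with JinB8 CD63+ EVs, against 11.80, 11.76 and 11.85 with JinB8 MHC1+ EVs. The CDH5 difference of -0.20 ± 0.07 did not pass in either fit. LYVE1, a hyaluronan receptor of lymphatic endothelium, rose in the covariate fit by 0.56 (adjusted p = 0.0335), with 1.04 in Jurkat and -0.18 in JinB8 in the plain values. PCDH12, a protocadherin of endothelial cells, differed by 0.50 ± 0.12 (0.56 in Jurkat and 0.43 in JinB8) and rose there by 0.52. The PCDH12 arrays overlapped in JinB8, with CD63+ replicate 1 at 5.68 and MHC1+ replicate 3 at 5.72. APLN, the ligand of the apelin receptor in sprouting vessels, was lower in both lines without overlap (-0.23 in Jurkat and -0.41 in JinB8) and fell by 0.31 in the covariate fit (adjusted p = 0.0367). EDN1, the vasoconstrictor endothelin 1, differed by -0.19 in Jurkat and -0.64 in JinB8 without overlap and fell by 0.36 there.

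CD47, the receptor that JinB8 cells lack, was measured here in the HUVEC. It differed by 0.14 ± 0.30 (95% interval -0.50 to 0.78), and Jurkat MHC1+ replicate 1 lay at 6.97 while the other 11 arrays lay between 8.23 and 9.13. Without that array the CD47 difference was -0.17. KDR, the main VEGF receptor, differed by 0.11 ± 0.11 (95% interval -0.12 to 0.34). THBS1, a secreted ligand of CD47, differed by -0.21 ± 0.084 (95% interval -0.40 to -0.03) and NOS3, the nitric oxide synthase of endothelium, by 0.25 ± 0.12 (95% interval -0.0022 to 0.50). The NOS3 groups overlapped in Jurkat, at 7.23 in all 3 CD63+ arrays, against 7.39, 7.19 and 7.10 with MHC1+ EVs. In JinB8 it lay at 7.54, 7.10 and 7.49 with CD63+ EVs, against 6.93, 6.81 and 6.87 with MHC1+ EVs, without overlap. None of the 13 genes of this list passed in either fit.

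The capture targets and other vesicle proteins of the recipient cells did not pass either. CD63 stood at 11.02, 11.12 and 11.20 with Jurkat CD63+ EVs, against 10.58, 10.87 and 11.11 with Jurkat MHC1+ EVs. It stood at 11.01, 11.22 and 10.79 with JinB8 CD63+ EVs, against 11.38, 11.47 and 11.47 with JinB8 MHC1+ EVs. The CD63 groups overlapped in Jurkat and were apart in JinB8, in the opposite direction. The difference over both lines was -0.090 ± 0.14 (95% interval -0.40 to 0.22), and it was 0.000897 in the covariate fit. Of 31 genes of tetraspanins and vesicle biogenesis, 0 passed in either fit and 0 agreed in both lines without overlap. Among 15 T cell markers 1 agreed, CD3G, a chain of the T cell receptor complex, at 4.15, 3.83 and 3.84 with Jurkat CD63+ EVs, against 3.62, 3.79 and 3.77 with Jurkat MHC1+ EVs. CD3G lay between 3.58 and 4.15 in all 12 arrays, its difference was 0.18 ± 0.085, and it did not pass in either fit.

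Genes of mitosis, which build the kinetochore and the spindle, leaned to the CD63+ side in Jurkat. The 35 measured genes had a median of 0.17 over both lines, with 0.45 in Jurkat and -0.10 in JinB8, and 0 agreed without overlap. NDC80, which ties kinetochores to microtubules, stood at 5.18, 5.10 and 5.30 with Jurkat CD63+ EVs, against 4.01, 4.28 and 4.68 with Jurkat MHC1+ EVs. It stood at 4.66, 4.72 and 4.68 with JinB8 CD63+ EVs, against 4.63, 4.53 and 4.83 with JinB8 MHC1+ EVs. NDC80 was thus apart in Jurkat and overlapped in JinB8. In the covariate fit 8 of 35 rose and 0 fell, against 1.97% and 0.451% of all genes, and the median over the list was 0.22. Those that rose were NDC80 at 0.54, CENPF at 0.51, KIF11 at 0.51, DLGAP5 at 0.47, CENPE at 0.46, ASPM at 0.42, ECT2 at 0.40 and HMMR at 0.29. The plain differences of these 8 genes were 0.45 to 0.89 in Jurkat and near 0 or negative in JinB8. There KIF11, DLGAP5 and ECT2 had -0.10, -0.19 and -0.14, and the other 5 lay between 0.015 (HMMR) and 0.070 (CENPF). Of 30 genes of DNA replication, MCM7, TYMS and POLA1 rose in the covariate fit, with plain differences of 0.53, 0.69 and 0.54 in Jurkat and of 0.060, -0.11 and -0.065 in JinB8. Without Jurkat MHC1+ replicate 1 and JinB8 CD63+ replicate 3, the median of the mitosis genes was 0.12.

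Cholesterol synthesis showed a similar arrangement, with a median over 16 genes of 0.42 in Jurkat and -0.18 in JinB8. HMGCS1, which makes the precursor of mevalonate, was at 7.72, 8.08 and 7.82 with Jurkat CD63+ EVs, against 5.68, 7.53 and 7.63 with Jurkat MHC1+ EVs. It was at 8.23, 8.61 and 7.68 with JinB8 CD63+ EVs, against 7.99, 8.50 and 7.997 with JinB8 MHC1+ EVs. The low Jurkat MHC1+ value was again that of replicate 1, and the JinB8 groups overlapped. HMGCS1, SQLE, the epoxidase of squalene, and ACAT2, a thiolase of the first step, rose in the covariate fit (by 0.67, 0.53 and 0.45), and 0 of 16 fell. The plain differences in Jurkat were 0.93 for HMGCS1, 0.74 for SQLE and 0.97 for ACAT2, while JinB8 had 0.0097, 0.036 and -0.57. PMVK, the kinase of phosphomevalonate, was lower in both lines without overlap, with a difference of -0.16, and did not pass in either fit. In the 10 arrays without Jurkat MHC1+ replicate 1 and JinB8 CD63+ replicate 3 the median of the list was 0.020. FASN, the fatty acid synthase, differed by 0.20 ± 0.13 (95% interval -0.075 to 0.48), and of 14 genes of fatty acid synthesis and desaturation only ME1, the cytosolic malic enzyme that yields NADPH, rose in the covariate fit, with plain differences of 0.62 in Jurkat and -0.076 in JinB8.

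NDRG1, a gene known to respond to hypoxia and stress, was higher in both lines without overlap. It stood at 9.45, 9.67 and 9.55 with Jurkat CD63+ EVs, against 8.89, 9.19 and 9.28 with Jurkat MHC1+ EVs. It stood at 9.51, 9.72 and 9.52 with JinB8 CD63+ EVs, against 9.28, 9.50 and 9.30 with JinB8 MHC1+ EVs. The JinB8 groups of NDRG1 barely cleared each other, with the lowest CD63+ array at 9.506 and the highest MHC1+ array at 9.504. NDRG1 was the 1 gene of 27 in the hypoxia and glycolysis list that rose in the covariate fit (by 0.37), and PFKP, a glycolytic kinase, was lower in both lines without overlap, with a difference of -0.16. The 35 genes of the unfolded protein and integrated stress response, 82 ribosomal proteins and 82 respiratory chain genes had 0 calls in either fit.

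Among 189 precursors of microRNAs, short RNAs that pair with messages through a seed, MIR10A and MIR494 were higher in both lines without overlap, and MIR217 rose in the covariate fit. The mature arms that RefSeq gives for these loci on GRCh38.p14 are shown with the seed, bases 2 to 8, in capitals, because the 3 seeds differ from each other.
hsa-miR-10a-5p: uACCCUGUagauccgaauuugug
hsa-miR-494-3p: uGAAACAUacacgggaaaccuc
hsa-miR-217-5p: uACUGCAUcaggaacugauugga
The probe sets read the precursor locus, so the values do not tell which arm was present. MIR10A (chromosome 17) stood at 3.42, 3.37 and 3.35 with Jurkat CD63+ EVs, against 3.04, 3.27 and 3.21 with Jurkat MHC1+ EVs. It stood at 3.45, 3.62 and 3.79 with JinB8 CD63+ EVs, against 3.25, 3.23 and 3.38 with JinB8 MHC1+ EVs. MIR494 (chromosome 14) differed by 0.22 ± 0.075 and MIR217 (chromosome 2) by 0.33 ± 0.11, and MIR217 rose by 0.38 in the covariate fit (adjusted p = 0.0268). The plain difference of MIR217 was 0.49 in Jurkat, where MHC1+ replicate 1 lay lowest at 2.78, and 0.18 in JinB8. In JinB8 the MIR217 arrays overlapped, with CD63+ replicate 1 at 3.43 and MHC1+ replicate 3 at 3.47. MIR132 fell by 0.54 in the covariate fit, and its plain difference was -0.86 in Jurkat and 0.045 in JinB8, so that the lines did not agree. The levels of MIR10A, MIR494 and MIR217 are near the low end of the scale, and no detection calls were analysed here.

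Small nucleolar RNAs (snoRNAs), which guide the methylation and pseudouridylation of ribosomal RNA, made up nearly all of the calls within JinB8 and all of those for the difference between the lines. Within Jurkat 0 genes passed (1522 at an unadjusted p under 0.05). Within JinB8 STC1 rose (0.00543%) and 16 genes fell (0.0869%), of which 15 were snoRNAs and the other was UXT, a prefoldin-like chaperone. The difference between the lines itself passed for 4 genes (0.0217%; 4563 at an unadjusted p under 0.05), all snoRNAs and all with the more negative difference in JinB8. This count of 4 was 0 without any 1 of Jurkat CD63+ replicate 2, JinB8 CD63+ replicate 1 and JinB8 MHC1+ replicates 1 and 2, with all 18 arrays and after quantile normalization again, and it was 3015 without Jurkat MHC1+ replicate 3. SNORA38B stood at 6.48, 6.36 and 6.01 with Jurkat CD63+ EVs, against 6.69, 6.59 and 6.29 with Jurkat MHC1+ EVs. It stood at 5.99, 6.31 and 6.50 with JinB8 CD63+ EVs, against 8.62, 8.71 and 8.53 with JinB8 MHC1+ EVs. Only the JinB8 MHC1+ arrays stood apart. The SNORA38B difference was -2.35 ± 0.17 in JinB8 (limma adjusted p = 8.67e-05) and -0.24 in Jurkat, and the interaction was -2.11 ± 0.24 (limma adjusted p = 0.0138).

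SNORA37 had an interaction of -1.64 (adjusted p = 0.0138), SNORD42A of -1.39 (adjusted p = 0.0224) and SNORA38 of -1.35 (adjusted p = 0.0224). For each the JinB8 MHC1+ arrays were the highest of the 12. With the array SD as a covariate, the interaction passed for SNORA38B (-2.44, adjusted p = 0.00111) and SNORA37 (-1.53, adjusted p = 0.0485). The fifth smallest p belonged to TIMM8B, a chaperone of mitochondrial import, at -1.15 (adjusted p = 0.105). Over all 192 snoRNAs and Cajal body RNAs the median difference was 0.12 in Jurkat and -0.49 in JinB8. This lean in JinB8 was not particular to them. The 7 vault, Y, RNase and telomerase RNAs had medians of 0.049 in Jurkat and -0.66 in JinB8, with 0 calls. Protein-coding lists leaned this way too, with medians of 0.23 and -0.42 for the 82 respiratory chain genes and 0.18 and -0.34 for the 82 ribosomal proteins. The 23 spliceosomal RNAs had -0.032 in Jurkat and 0.085 in JinB8. Of the 192, 1 agreed in both lines without overlap, SNORD33, which lay at 12.35, 12.34 and 12.004 with Jurkat CD63+ EVs, against 12.68, 12.61 and 12.42 with Jurkat MHC1+ EVs. It lay at 12.23, 12.29 and 12.46 with JinB8 CD63+ EVs, against 12.64, 12.56 and 12.49 with JinB8 MHC1+ EVs, and it fell by 0.32 in the covariate fit, where SNORA38B, SNORA38 and SNORD32B also fell and 0 of 192 rose. The plain difference of SNORA38 was 0.0074 in Jurkat and -1.35 in JinB8, and that of SNORD32B was -0.25 and -0.70. The 17 proteins of snoRNA particles had 0 calls in either fit. The labels and the design text name different RNA kits, and how far the kit retained short RNAs was not tested.

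**Figure D5:**
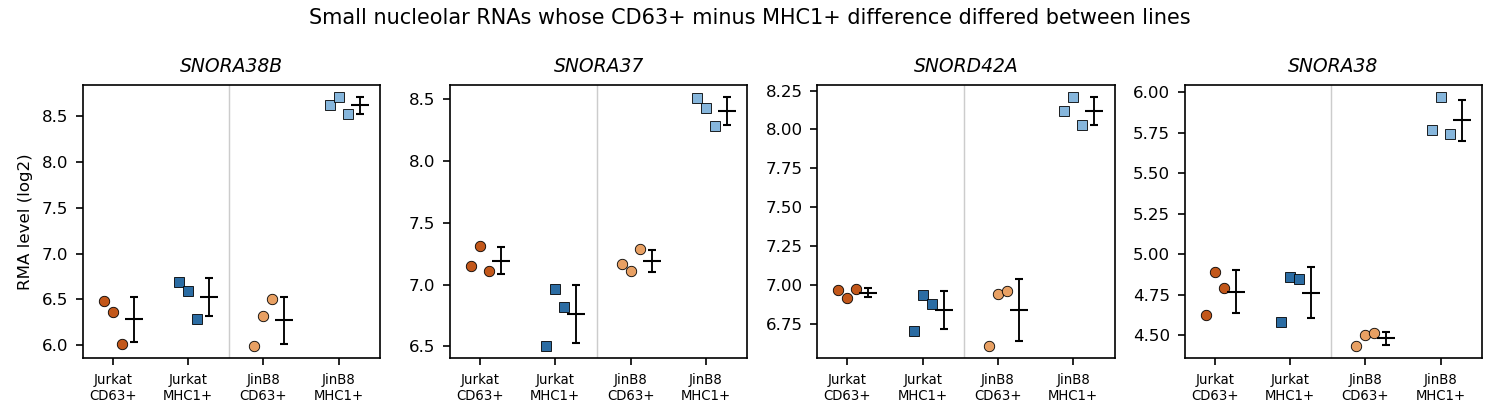
RMA level (log2, vertical axis) of the 4 snoRNAs that passed the interaction test, by T cell line and capture, with points for arrays and bars for the group mean ± SD (n = 3). For each, the 3 JinB8 MHC1+ arrays are the highest of the 12, at 8.53 to 8.71 for SNORA38B.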

How the data were processed

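HUVEC RNA was measured on 18 Affymetrix whole-transcript arrays, 3 in each of 6 groups, of which 12 enter here. Per the submitters' processing notes, Affymetrix Expression Console and RMA were used, and their versions were not given in the sources used here. The method corrects background, quantile-normalizes arrays and gives log2 values. The deposited table does not state its scale, which was read as log2 from the range of 2.13 to 14.1. The number of arrays limits the precision.

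Of 33297 probe sets, 12083 had no gene symbol in the platform annotation and 1754 had several, and these were left out. For each of 18417 genes (769 with several probe sets), the probe set with the highest mean over the 18 arrays was kept. In that mean, replicate 3 of the untreated and of the bead group entered although their median r with the vesicle arrays was 0.647 and 0.634. Of the genes, 18392 matched RefSeq. The 12 arrays were fitted with lmFit and eBayes of limma 3.58.1 (R 4.3.3), with capture and line for the main comparison and with 4 group means for each line and the interaction. Tests were two-sided moderated t tests, adjusted by Benjamini and Hochberg over all genes, and a gene was called under 0.05. The scripts were tested on simulated data. Tables used pandas 2.3.3 and numpy 2.4.6 and plots matplotlib 3.10.9, under Python 3.11.15.

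The members of the comparison, the 34 gene lists and the rule for naming genes were chosen with earlier results of these data known, and lists carry no test. The rule names called genes that agree in both lines (up to 15 each way), else the 10 smallest p of a direction, up to 4 genes of each list, the 5 smallest interaction p and preset genes. Other genes that the text names are members that agree, fell or rose, and were chosen after their values were seen. Alternatives were leaving out each array, other normalizations, filters, blocks and weights, the array SD as a covariate, all probe sets and all 18 arrays. Fits on 10 arrays and on 4 group means with the array SD were added after seeing the data.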

Additional observations from a re-analysis of the deposited data

Results flagged for a closer look

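Jurkat MHC1+ replicate 1 stood apart among the 6 MHC1+ arrays. Its median correlation with the other vesicle arrays (0.947) left a gap to the next array that was 0.863 of the whole range, past the 95% critical value of Dixon's test for 6 arrays. Chance alone flags about 5% of groups. For single genes the ratio was computed in each capture for at least 60 named genes, so chance alone would flag some of them. The same ratio passed the critical value among the MHC1+ arrays for SMPD2 (0.679), MMP10 (0.655), HMMR (0.728), HMGCS1 (0.655), MCM7 (0.824), CD47 (0.748) and KDR (0.691), and among the CD63+ arrays for ADAMTS4 (0.646). CD47 lay at 6.97 in Jurkat MHC1+ replicate 1, against 8.59 to 9.13 in the other MHC1+ arrays, and HMGCS1 at 5.68, against 7.53 to 8.50. For SMPD2 the same array was the highest, at 5.61. For ADAMTS4 the separate array was JinB8 CD63+ replicate 3, at 6.11.

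For 4 snoRNAs the CD63+ minus MHC1+ difference itself differed between the lines (limma interaction). The difference in JinB8 was below that in Jurkat by -2.11 for SNORA38B, -1.64 for SNORA37, -1.39 for SNORD42A and -1.35 for SNORA38. The interaction count of 4 was 0 with all 18 arrays, after quantile normalization again and in the fits without Jurkat CD63+ replicate 2, JinB8 CD63+ replicate 1, JinB8 MHC1+ replicate 1 or JinB8 MHC1+ replicate 2. With the array SD as a covariate the interaction remained past the threshold for SNORA38B (-2.44, adjusted p = 0.00111) and SNORA37 (-1.53, adjusted p = 0.0485).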

How the results depend on the processing

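In this section a gene is counted as agreeing only if it was also called in the fit named, unlike the count without a p-value above. The rise of STC1 in the blocked fit was the 1 call with each array left out in turn (1 to 1 higher, 0 to 0 lower, 1 to 1 agreeing), whereas counts within a line moved with single arrays: 0 to 3 in Jurkat, 6 to 327 in JinB8 (main 17; 327 without JinB8 CD63+ replicate 2 and 215 without Jurkat MHC1+ replicate 1) and 0 to 3015 for the interaction (main 4; 3015 without Jurkat MHC1+ replicate 3 and 94 without JinB8 CD63+ replicate 2). Without the line block and after quantile normalization again, 0 genes were called higher, so 0 were both called and agreeing. With array weights 9 were higher, 26 lower and 14 agreed; their within-line counts of 6822 in Jurkat and 5781 in JinB8 and 8760 interactions come from weights that did not converge. With the array SD 362 were higher, 83 lower and 45 agreed, and 1 was called in Jurkat and 2 for the interaction. With 4 group means and the array SD 444 were higher, 120 lower and 47 agreed. On 4 group means alone 2 were lower, and with all 18 arrays 1 was lower, 1 was called in JinB8 and 0 for the interaction. In JinB8 the count was 6 without the lowest 50% of genes, 11 after quantile normalization again and after centring on array medians (which called 1 in Jurkat), 26 with trend and robust options, 7 with a minimum of 1.2-fold and 60 in 10 arrays. The interaction count was 0 after quantile normalization again, 2 with a minimum of 1.2-fold and 11 in 10 arrays. Signs turned for genes with no call: CD63 was 0.025 after quantile normalization again and 0.000897 with the array SD, CD81 was 0.059 and B2M 0.0035 after quantile normalization again, and CD47 was -0.062 with array weights, -0.037 in 10 arrays and -0.17 (without Jurkat MHC1+ replicate 1) to 0.30 with 1 array left out. No paired analysis was possible because the labels give each array a serial number of its own and no replicate number shared between groups. The cause of these changes was not tested.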

Other observations

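In the fit with the array SD, the largest rises besides STC1 and HMGCS1 included NSA2, a factor of ribosome assembly, at 0.75, CALCRL, the receptor subunit for adrenomedullin and calcitonin gene-related peptide, at 0.68, LPAR6, a receptor of lysophosphatidic acid, at 0.66, and KITLG, the ligand of the KIT receptor, at 0.64. These genes were chosen after their values were seen. In the plain values NSA2 differed by 1.25 in Jurkat and -0.35 in JinB8, CALCRL by 1.08 in Jurkat and -0.14 in JinB8, KITLG by 1.14 and -0.24, and LPAR6 by 0.93 and 0.14. At the other end, besides SNORA38B at -1.19, SAA2, an acute-phase serum amyloid, fell by 0.63 and CLDN11, a claudin of tight junctions, by 0.51. Their plain differences were -0.66 in Jurkat and -0.43 in JinB8 for SAA2, and -0.26 and -0.92 for CLDN11.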
